A study of Mus musculus with 6 samples.

Results

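Respiratory complex I is the NADH:ubiquinone oxidoreductase of the inner mitochondrial membrane. Its nuclear-encoded genes were taken as all rows of the deposited count table with the biotype protein_coding and a symbol starting with Nduf, which gave 46 of the 54532 genes. By symbol, 7 of the 46 encode core subunits, 29 accessory subunits and 8 assembly factors (Ndufaf genes). The remaining 2 were kept apart: Ndufa4, whose protein is now assigned to cytochrome c oxidase, and its paralog Ndufa4l2. RNA came from iWAT (inguinal white adipose tissue, a fat pad under the skin) of old mice, and both groups had been kept in the cold for 7 days. The control group received vehicle and the treated group estrogen, with 3 libraries each, and the series asks how estrogen alters the transcriptome of this fat in old animals. The sources used here do not state strain, sex or exact age, nor the form, dose or route of the estrogen.

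Complex I takes electrons from NADH, passes them along a chain of iron-sulfur clusters to ubiquinone, and pumps protons across the membrane. The core subunits, some encoded in the nucleus and some on the mitochondrial chromosome, carry out catalysis, while accessory subunits surround and stabilise them, and assembly factors help to build the complex without staying in it. The NADH module, which accepts the electrons, and the Q module, which reduces ubiquinone, form the arm that reaches into the matrix, and the proton pumps lie in the membrane arm. In cold-exposed fat the respiratory chain burns fuel to make heat in brown and beige adipocytes.

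Total counts ran from 16046601 to 20736771 per library, and the lowest count of any member in any library was 88, so no member was near the detection floor of 3 counts (0.145 to 0.187 CPM, read counts scaled to library size). The fat identity of the tissue was seen in its adipocyte markers, with summed levels of 29290 to 43350 CPM in the vehicle and 42150 to 77440 CPM in the estrogen libraries. Estrogen replicate 1 stood apart, with summed skeletal muscle markers at 8040 CPM against 3.05 to 70.9 CPM in the other libraries, where Myh4, Ckm and Pvalb had 0 counts in vehicle replicate 1 and estrogen replicates 2 and 3. Estrogen replicates 1 and 3 had summed B cell markers of 107 and 76.7 CPM against 4.12 to 6.51 CPM elsewhere. T cell markers were at 53.9 CPM in estrogen replicate 1 and 2.80 to 10.03 CPM elsewhere, and neutrophil markers at 205 CPM in vehicle replicate 1 and 41.7 to 60.9 CPM elsewhere. Fibroblast and progenitor markers were lower with estrogen in 10 of 10 cases (15550 to 43650 CPM with vehicle, 1646 to 10780 CPM with estrogen), as were macrophage markers in 10 of 10 (2817 to 4008 against 712 to 2115 CPM). In bulk tissue, fewer cells of a type and less RNA per cell cannot be told apart, and the part of these shifts in the results that follow was not tested.

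In what follows, values per library stand in the order of replicates 1, 2 and 3 of each group, and the error after a log2 fold change is its standard error (SE). Of the 46 genes, 45 had a positive log2 fold change of estrogen over vehicle, where 50.3% of the 15591 tested genes did. When scaled by library totals, 42 of the 46 did. The median of all tested genes was then -0.17, and the matching share of positive genes is not given. With the main TMM scaling, the exception was Ndufa4l2. The median over the 46 was 0.41 (1.33-fold), beside 0.00 over all tested genes, and the middle of the distribution, from the lower to the upper quartile, lay between 0.35 and 0.49. By edgeR's quasi-likelihood test with Benjamini-Hochberg adjustment over all genes, 0 members were called higher and 0 lower (background 0% in each direction), and limma-voom also called 0. At an unadjusted p under 0.05, 27 members were higher (background 9.49%) and 1 was lower (background 10.9%). DESeq2 called 6 members higher (background 2.75%) and 1 lower (background 3.34%). The 3 estrogen libraries lay above the 3 vehicle libraries for 21 members (background 12.8%) and below them for 1 (background 14.7%).

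The count at an unadjusted p under 0.05 depended on the scaling and on single libraries. It was 7 with library totals in place of TMM scaling, 7 without vehicle replicate 2, 9 without vehicle replicate 3, 11 without estrogen replicate 2 and 19 without estrogen replicate 3, against 30 without vehicle replicate 1 or without estrogen replicate 1. The share over all tested genes in each of these fits is not given. Whether the changes in the count are particular to complex I was not tested. The median over the members was 0.49 without estrogen replicate 1, the library with muscle and B cell markers, and 0.43 without estrogen replicate 3.

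**Figure D1:**
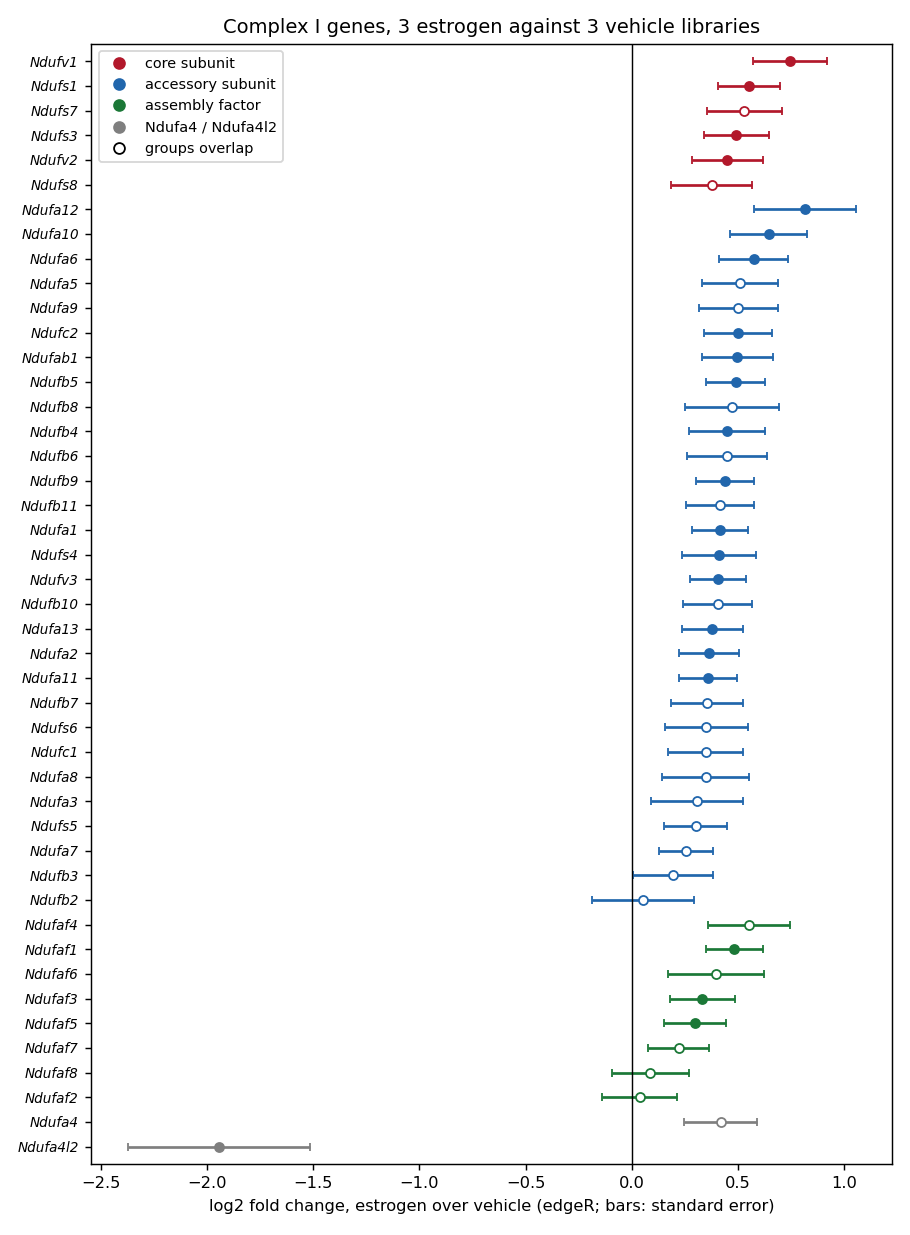
Log2 fold change of estrogen over vehicle (x axis, bars are standard errors, n = 3 per group) for 45 of the 46 genes (y axis), coloured by class, with open circles where the groups overlap. The subunits drawn lie between 0.05 and 0.82, and Ndufa4l2 alone lies below 0, at -1.94.

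Most members shared their high and low libraries. Summed over the 46 genes, complex I transcripts were at 5266, 4202 and 4292 CPM in vehicle replicates 1, 2 and 3 and at 5442, 7105 and 6323 CPM in estrogen replicates 1, 2 and 3. Vehicle replicate 1 and estrogen replicate 1 were therefore close to each other. On this TMM scale the contrast rested on low values in vehicle replicates 2 and 3 and high values in estrogen replicates 2 and 3. As a share of raw counts, members made up 0.543%, 0.437% and 0.477% with vehicle and 0.545%, 0.676% and 0.551% with estrogen. Estrogen replicate 3, with a TMM factor of 0.873, was thus near both replicates 1 before scaling. Estrogen replicate 2 held the highest level of 5 of 7 core and 25 of 29 accessory subunits. Vehicle replicate 2 held the lowest level of 21 accessory subunits, and vehicle replicate 3 that of 4 core and 7 accessory subunits. The 8 assembly factors followed this less. Of them, 3 were highest in estrogen replicate 2, 4 in estrogen replicate 3 and 1 in a vehicle library. Vehicle replicates 1 and 3 each held the lowest level of 3 assembly factors. Of 8 brown and beige adipocyte markers, 7 were also highest in estrogen replicate 2, Ucp1 and Cidea among them, and 1, Ppargc1a, in estrogen replicate 3. Their summed level was 3306 CPM in estrogen replicate 2, against 507 CPM in estrogen replicate 3 and 788 to 1738 CPM with vehicle. Ucp1, the uncoupling protein of heat-producing fat, was at 907, 589 and 333 CPM with vehicle and 696, 1754 and 10.2 CPM with estrogen, so estrogen replicate 3 had the lowest Ucp1 level while complex I genes summed to 6323 CPM there. The part of these markers in the result was not tested.

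**Figure D2:**
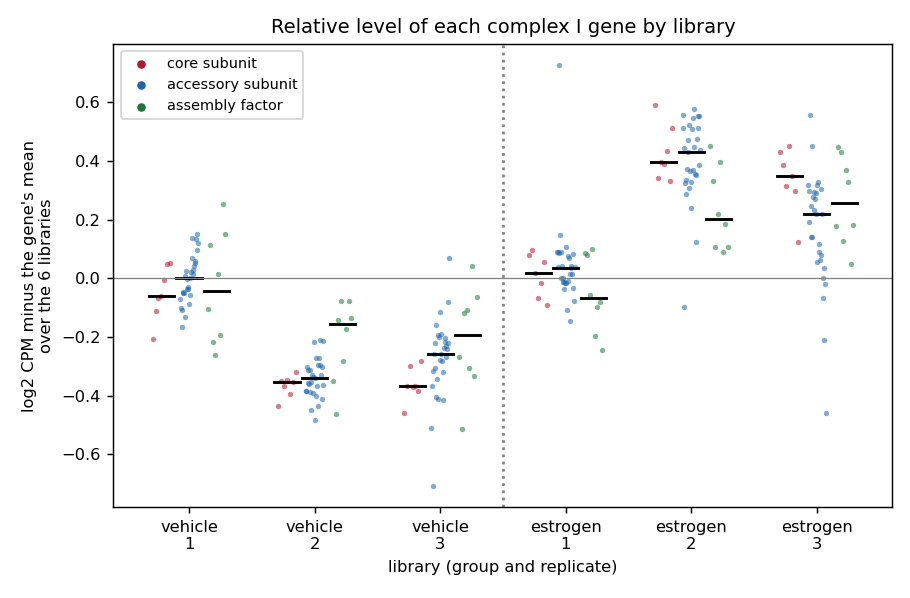
Log2 CPM of each gene minus its own mean over the 6 libraries (y axis), by library (x axis), with black lines at the class medians. Vehicle replicate 1 and estrogen replicate 1 lie near 0, vehicle replicates 2 and 3 below it, and estrogen replicates 2 and 3 above it, and the single accessory gene far above the rest in estrogen replicate 1 is Ndufa12.

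The 7 nuclear-encoded core subunits gave 0.51 (1.43-fold) as their median log2 fold change, with 7 of 7 positive, 6 of 7 higher at an unadjusted p under 0.05 (9.49% of all tested genes) and groups apart in 4 (12.8% of all tested genes). The NADH module's flavoprotein Ndufv1 binds NADH and the flavin that first accepts its electrons. It was at 247, 211 and 207 CPM with vehicle and 301, 429 and 384 CPM with estrogen (ENSMUSG00000037916, chromosome 19, 4007497 to 4012806, mm10). Every estrogen library was above every vehicle library, and the log2 fold change was 0.74 ± 0.17, the largest among the 7 (edgeR adjusted p = 0.207, DESeq2 adjusted p = 0.00882).

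Ndufs1, the large iron-sulfur protein that carries electrons on from the flavin, was at 236, 200.2 and 198 CPM with vehicle and 273, 323 and 333 CPM with estrogen (ENSMUSG00000025968, chromosome 1, 63143596 to 63176833). Exons of Ndufs1 overlap Eef1b2 on the opposite strand, which counting without strand could not tell apart. Its groups did not overlap either, at 0.55 ± 0.15 (edgeR adjusted p = 0.207, DESeq2 adjusted p = 0.0192). Ndufv2, the iron-sulfur partner of Ndufv1, was at 201, 152 and 149 CPM with vehicle and 202, 245 and 239 CPM with estrogen. Vehicle replicate 1 and estrogen replicate 1 were nearly level there, and the log2 fold change was 0.45 ± 0.17.

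In the Q module, Ndufs7, which holds the last iron-sulfur cluster before ubiquinone, was at 135, 111 and 109 CPM with vehicle and 135, 185 and 193 CPM with estrogen (log2 fold change 0.53 ± 0.18). Its estrogen replicate 1 lay just under its vehicle replicate 1.

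Ndufs3, a matrix-arm scaffold subunit, was at 139, 112 and 118 CPM with vehicle and 147, 191 and 180.5 CPM with estrogen (log2 fold change 0.49 ± 0.15). Here the groups were apart, although 47.8% of the 50-base stretches of its coding sequence recur in transcripts of 2 other genes, Gm12251 foremost. Ndufs8, a further iron-sulfur subunit, was at 112, 86.4 and 88.7 CPM with vehicle and 101, 154 and 117 CPM with estrogen, had overlapping groups and the smallest core difference (log2 fold change 0.38 ± 0.19, edgeR unadjusted p = 0.0873). By edgeR, adjusted p-values of the 7 core subunits ran from 0.207 to 0.295.

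**Figure D3:**
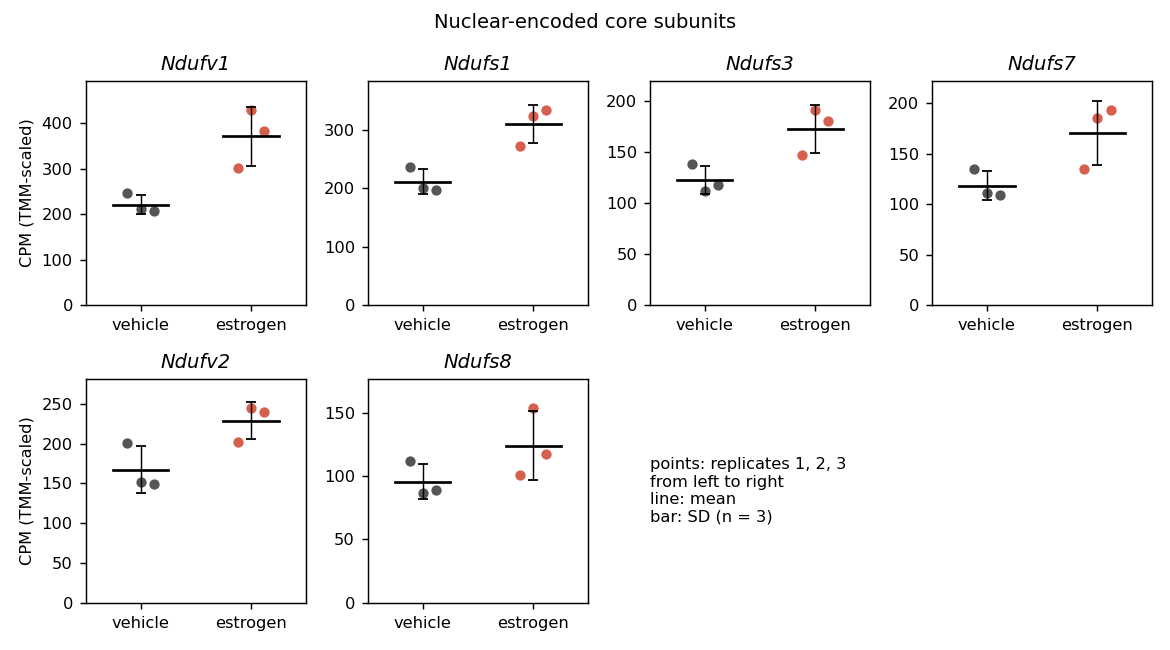
TMM-scaled CPM (y axis, from 0) of 6 nuclear-encoded core subunits in the vehicle and estrogen libraries, with replicates 1 to 3 as points from left to right, lines at the mean and bars for the SD (n = 3). In each panel the first point of the estrogen group is its lowest and the first point of the vehicle group its highest.

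The promoters of the core subunits whose groups were apart are shown here, with the match to an ETS factor motif in capitals. They are the 250 bases before the RefSeq start site on GRCm38.p6, and sequences were at hand for Ndufv1, Ndufs3 and Ndufv2.
Ndufv1, chr19:4012756-4013005, reverse strand: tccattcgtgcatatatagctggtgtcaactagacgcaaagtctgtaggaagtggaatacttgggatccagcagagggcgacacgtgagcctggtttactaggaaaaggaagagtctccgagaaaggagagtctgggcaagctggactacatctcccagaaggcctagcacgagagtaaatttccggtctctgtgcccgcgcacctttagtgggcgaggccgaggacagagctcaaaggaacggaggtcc
Ndufs3, chr2:90904722-90904971, reverse strand: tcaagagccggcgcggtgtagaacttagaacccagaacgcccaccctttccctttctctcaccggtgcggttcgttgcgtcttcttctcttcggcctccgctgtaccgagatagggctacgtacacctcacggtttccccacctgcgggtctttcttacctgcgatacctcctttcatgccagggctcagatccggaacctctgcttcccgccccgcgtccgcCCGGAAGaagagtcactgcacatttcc
Ndufv2, chr17:66101560-66101809, reverse strand: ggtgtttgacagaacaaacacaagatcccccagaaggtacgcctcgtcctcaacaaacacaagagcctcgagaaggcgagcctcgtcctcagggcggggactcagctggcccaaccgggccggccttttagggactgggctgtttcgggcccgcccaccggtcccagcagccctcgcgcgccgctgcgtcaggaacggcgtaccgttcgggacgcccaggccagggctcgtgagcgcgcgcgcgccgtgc
Of the motifs searched, Ndufs3 alone of these 3 held a match in the printed bases, CCGGAAG, which starts 27 bases before the start site.

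Across the members, 40 of the 46 matched the RefSeq promoter table, with 42 windows of 300 bases (250 before to 50 after the start site). Both strands were searched. The YY1 motif AAGATGGCG was in 14.3% of the members' windows, 2.68% of the windows of genes tested here and 1.40% of all windows in the table. For the palindromic NRF1 motif (nuclear respiratory factor 1, its letters are the capitals in the last 3 sites printed here) the shares were 7.14%, 1.89% and 0.971%, and with up to 1 mismatch 28.6%, 11.8% and 6.33%. The ETS motif CCGGAAG, of the family that holds GABPA, was in 14.3% against 16.1% of windows of tested genes. The estrogen-related receptor motif TCAAGGTCA and the full palindromic estrogen response element had 0 matches in the members' windows, where tested genes had 0.267% and 0.00702%. These matches are descriptions of letters, not of binding; a missing match says only that these letters are not in the window, and no test was made. The 6 YY1 matches, in capitals, are shown because they share a position after the start site, 10 to 35 bases downstream.
Ndufa9, chr6:126849097-126849125, reverse strand: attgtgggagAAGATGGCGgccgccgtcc
Ndufaf8, chr11:120098934-120098962, forward strand: ggcagggcccAAGATGGCGgcgccctcga
Ndufc1, chr3:51408915-51408943, reverse strand: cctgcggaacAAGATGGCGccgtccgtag
Ndufs4, chr13:114388045-114388069, reverse strand: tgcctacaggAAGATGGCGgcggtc
Ndufs6, chr13:73328433-73328459, reverse strand: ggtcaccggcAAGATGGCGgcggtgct
Ndufs7, chr10:80249463-80249491, forward strand: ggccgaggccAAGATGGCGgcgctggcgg
In 5 of the 6 (the exception was Ndufaf8) the ATG inside the match is the annotated translation start of the gene's longest coding transcript. The 3 exact NRF1 matches follow, with the motif in capitals.
Ndufa11, chr17:56717692-56717720, forward strand: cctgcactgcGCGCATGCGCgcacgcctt
Ndufaf4, chr4:24897960-24897988, forward strand: ccagatgtctGCGCATGCGCctgtgcgga
Ndufaf5, chr2:140170652-140170680, forward strand: agtcccgttgGCGCATGCGCctaatagaa
Log2 fold changes of the genes with a YY1 match ran from 0.09 for Ndufaf8 to 0.53 for Ndufs7. The genes with an exact NRF1 match had 0.36 (Ndufa11), 0.55 (Ndufaf4) and 0.30 (Ndufaf5).

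For accessory subunits the median was 0.41 on the log2 scale (1.33-fold), in a range of 0.05 to 0.82, with 29 of 29 positive, 18 higher at an unadjusted p under 0.05 (background 9.49%) and groups apart in 14 (background 12.8%). Ndufa10, a membrane-arm subunit with a nucleoside kinase fold, was at 258, 208 and 190.0 CPM with vehicle and 288, 398 and 338 CPM with estrogen (ENSMUSG00000026260, chromosome 1, 92439010 to 92473860). Its log2 fold change was 0.64 ± 0.18, and all of its leave-one-out values lay between 0.52 and 0.78 (edgeR adjusted p = 0.207, DESeq2 adjusted p = 0.0350). Ndufa6, a protein of the LYR family that docks the mitochondrial acyl carrier protein in the matrix arm, was at 114, 93.8 and 95.0 CPM with vehicle and 126, 175 and 151 CPM with estrogen. Its groups were apart, at 0.57 ± 0.16 (DESeq2 adjusted p = 0.0441).

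Ndufb5, of the distal membrane arm, was at 111, 96.7 and 95.9 CPM with vehicle and 127, 162 and 136 CPM with estrogen, a log2 fold change of 0.49 ± 0.14 (DESeq2 adjusted p = 0.0479). Exons of Ndufb5 overlap Mrpl47 on the opposite strand, and 14.5% of the 50-base stretches of its coding sequence also occur there. Mrpl47 itself had a log2 fold change of 0.38 (edgeR unadjusted p = 0.0345). Ndufb9, the other LYR protein of the complex, was at 125, 101 and 108 CPM with vehicle and 138, 162 and 154 CPM with estrogen (log2 fold change 0.44 ± 0.14). Gm49356, which overlaps Ndufb9 on the same strand, holds 31.4% of the 50-base stretches of the Ndufb9 coding sequence. It had 0 to 4 counts per library. The acyl carrier protein itself, Ndufab1, had 0.50 ± 0.17, with 99.8% of the 50-base stretches of its coding sequence present in transcripts of other genes, so its count is uncertain. For Ndufb4 every 50-base stretch recurred elsewhere, and its log2 fold change was 0.45.

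Ndufa1, a small subunit at the junction with the membrane arm, was at 77.1, 62.1 and 68.5 CPM with vehicle and 88.4, 101 and 87.9 CPM with estrogen (log2 fold change 0.41 ± 0.13). Ndufc2, also of the membrane arm, was at 74.9, 59.3 and 62.7 CPM with vehicle and 77.5, 94.6 and 106 CPM with estrogen (log2 fold change 0.50 ± 0.16). Ndufv3, an accessory protein of the NADH module, was at 142, 126 and 139.7 CPM with vehicle and 166, 202 and 172 CPM with estrogen (log2 fold change 0.41 ± 0.13). In each of these 3 genes the lowest estrogen library was above the highest vehicle library, and none passed the test over all genes (edgeR adjusted p = 0.207 for each).

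Ndufa12, an accessory subunit of the NADH module, had the largest positive log2 fold change of the 46 genes, 0.82 ± 0.24, and did not follow the others from library to library. It was at 52.7, 47.5 and 36.1 CPM with vehicle and 97.8, 55.2 and 86.8 CPM with estrogen, so it was highest in estrogen replicate 1, which was the lowest of the estrogen libraries for 7 of 7 core and 21 of 29 accessory subunits. Its edgeR adjusted p was 0.207 and its DESeq2 adjusted p 0.0420, and without estrogen replicate 1 the log2 fold change was 0.63. Of the 50-base stretches of its coding sequence, 69.8% also occur in Gm15920. The level of Gm15920 in vehicle replicates 1, 2 and 3 was 24.5, 15.9 and 24.2 CPM, and in estrogen replicates 1, 2 and 3 it was 18.7, 41.8 and 30.6 CPM, low where Ndufa12 was high within the estrogen group. Summed, both were at 77.2, 63.5 and 60.3 CPM with vehicle and 117, 97.0 and 117 CPM with estrogen, and the groups stayed apart. Estrogen replicates 1 and 3, the higher ones for Ndufa12, were also those with B cell markers, whose part in the result was not tested.

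At the low end stood Ndufb3 (log2 fold change 0.19 ± 0.19) and Ndufb2 (log2 fold change 0.05 ± 0.24), both of the distal membrane arm. Ndufb2 was at 15.0, 11.9 and 14.4 CPM with vehicle and 14.2, 18.7 and 10.03 CPM with estrogen, far below the other subunits in count, and its estrogen libraries lay on both sides of the vehicle libraries. Leaving out estrogen replicate 2 gave -0.19 on the log2 scale, and leaving out vehicle replicate 2 gave -0.04. Exons of Ndufb2 overlap those of Braf on the opposite strand and those of Gm42420 on the same strand. Transcripts of other genes, Gm42420 foremost, hold 51.1% of the 50-base stretches of its coding sequence, so its count is uncertain. Gm42420 itself had 0 to 5 counts per library. The remaining 17 accessory subunits had log2 fold changes of 0.25 (Ndufa7) to 0.51 (Ndufa5) and edgeR adjusted p-values of 0.212 to 0.436.

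Grouped by position, the 10 measured NADH-module subunits had a median log2 fold change of 0.43, the 6 of the Q module 0.51, the 9 of the proximal membrane arm 0.36 and the 11 of the distal membrane arm 0.44. The Q module was the tightest, from 0.38 to 0.53. The widest range was that of the NADH module, from 0.25 for Ndufa7 to 0.82 for Ndufa12. Whether the module medians differ was not tested.

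The median of the assembly factors was 0.31 on the log2 scale (1.24-fold), with 8 of 8 positive, 2 higher at an unadjusted p under 0.05 (background 9.49%) and groups apart in 3 (background 12.8%). Ndufaf1, which acts in building the membrane arm, was at 27.9, 23.6 and 24.9 CPM with vehicle and 31.9, 41.0 and 34.0 CPM with estrogen. Its groups were apart, at 0.48 ± 0.14 (edgeR adjusted p = 0.207). Ndufaf4, which works with Ndufaf3 on the early matrix-arm intermediate, was at 34.9, 23.4 and 22.6 CPM with vehicle and 34.1, 40.6 and 44.0 CPM with estrogen (log2 fold change 0.55 ± 0.20). Its vehicle replicate 1 reached the level of estrogen replicate 1.

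Ndufaf3 was at 16.4, 17.2 and 17.5 CPM with vehicle and 18.3, 20.5 and 25.6 CPM with estrogen, with groups that only just separated (log2 fold change 0.33 ± 0.15). Ndufaf5, which hydroxylates Ndufs7, was at 9.04, 10.3 and 10.1 CPM with vehicle and 11.6, 12.6 and 11.8 CPM with estrogen (log2 fold change 0.30 ± 0.15), again with the groups apart. Ndufaf6 was at 0.40 ± 0.22, Ndufaf7, a methyltransferase, at 0.22 ± 0.14, Ndufaf8, the partner of Ndufaf5, at 0.09 ± 0.18 and Ndufaf2 at 0.04 ± 0.18. Ndufaf2 is the paralog whose place Ndufa12 takes late in assembly, and it was at 13.0, 10.6 and 11.2 CPM with vehicle and 9.85, 12.6 and 13.2 CPM with estrogen, with overlapping groups and an unadjusted p of 0.842 by edgeR. Ndufaf8 was at -0.04 without vehicle replicate 3, and Ndufaf2 at -0.05, -0.02 and -0.01 without estrogen replicate 3, vehicle replicate 2 and estrogen replicate 2.

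Set side by side, the class medians were 0.51 for core, 0.41 for accessory and 0.31 for assembly genes. Core exceeded accessory by 0.10 with all libraries and by 0.02 to 0.14 with a library left out, the lowest value being that without estrogen replicate 3. In that library the core median exceeded the accessory one by 0.13 on the scale relative to the mean of the 6 libraries, whereas in the other 5 libraries it lay 0.01 to 0.11 below it. Core exceeded assembly by 0.20, and by 0.11 to 0.36 with a library left out. No p-value is given for these differences. The classes also differed in depth of measurement, with a median mean of 167.5 CPM for core, 95.4 CPM for accessory and 16.4 CPM for assembly genes in the vehicle libraries.

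**Figure D4:**
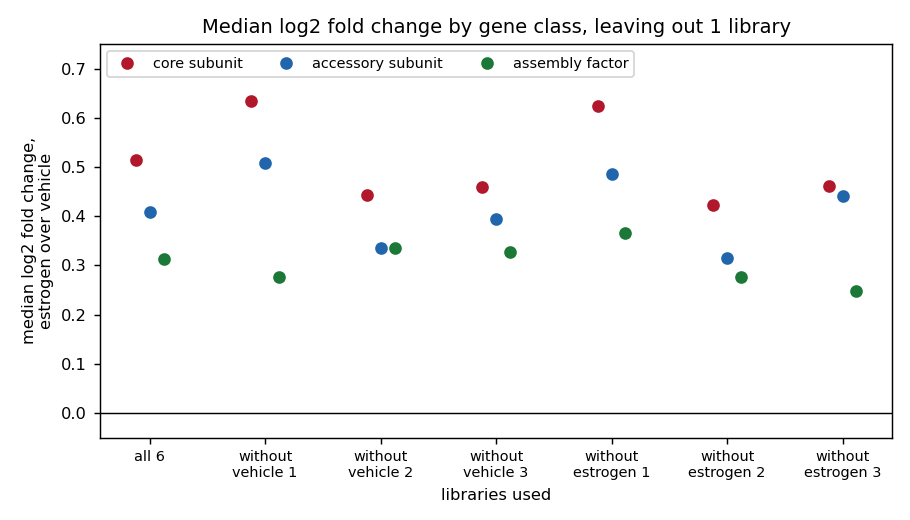
Median log2 fold change of estrogen over vehicle (y axis) for core, accessory and assembly genes with all 6 libraries and with each library left out (x axis). All medians are above 0, and the core median is the highest in each case, by as little as 0.02 over the accessory median without estrogen replicate 3.

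Levels can be compared between genes only per length, and here the gene length of the deposited table was used. On that scale, in CPM per kb of the vehicle mean, Ndufa2 (176), Ndufa1 (165) and Ndufb3 (135) were among the highest subunits. Core subunits had a median of 78.0, accessory subunits 65.6 and assembly factors 7.52 CPM per kb. Ndufaf8 (18.9) and Ndufaf1 (17.0) were the highest assembly factors and Ndufaf2 (3.89) the lowest. Ndufb2 (2.45), Ndufab1 (18.6), Ndufb7 (19.4) and Ndufb5 (20.2) were the lowest subunits, and their listed lengths, 5628, 6883, 4522 and 4995 bases, were among the longest.

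Ndufa4 and Ndufa4l2 had log2 fold changes of opposite sign. Ndufa4 encodes a protein found with cytochrome c oxidase, and Ndufa4l2 is its paralog, known as a hypoxia-inducible gene that restrains respiration. Ndufa4 was at 334, 246 and 263 CPM with vehicle and 333, 423 and 368 CPM with estrogen (ENSMUSG00000029632, chromosome 6, 11900292 to 11907497). It was level between both replicates 1, and its log2 fold change was 0.42 ± 0.17 (edgeR adjusted p = 0.235, DESeq2 adjusted p = 0.145).

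Ndufa4l2 was at 23.7, 49.2 and 16.8 CPM with vehicle and 6.53, 10.7 and 6.13 CPM with estrogen (ENSMUSG00000040280, chromosome 10, 127514967 to 127517154). The highest estrogen library was below the lowest vehicle library, and vehicle replicate 2 was far above the other vehicle libraries. The log2 fold change was -1.94 ± 0.43, 3.85-fold lower, from 29.9 ± 17.1 CPM with vehicle to 7.78 ± 2.52 CPM with estrogen (SD, n = 3). The edgeR adjusted p was 0.207 and the DESeq2 adjusted p 0.00243. Without vehicle replicate 2 the log2 fold change was -1.38. Vehicle replicate 2 also had the highest fibroblast and progenitor markers (43650 CPM summed), whose part in the result was not tested. The gene's exons overlap those of Shmt2 on the opposite strand, and the strand setting of the counting is not given in the sources used here. Shmt2 had a log2 fold change of -0.32 (edgeR unadjusted p = 0.230).

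The coding sequences of both paralogs, from GENCODE M21 without the stop codon, show how far apart they are, with capitals at bases that differ in their global alignment.
Ndufa4: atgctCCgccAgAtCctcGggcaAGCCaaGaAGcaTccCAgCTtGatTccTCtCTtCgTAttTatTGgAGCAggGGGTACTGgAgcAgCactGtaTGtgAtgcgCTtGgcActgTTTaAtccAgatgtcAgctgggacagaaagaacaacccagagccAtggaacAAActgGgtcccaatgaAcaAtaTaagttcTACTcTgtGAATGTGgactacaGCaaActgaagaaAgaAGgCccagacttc
Ndufa4l2: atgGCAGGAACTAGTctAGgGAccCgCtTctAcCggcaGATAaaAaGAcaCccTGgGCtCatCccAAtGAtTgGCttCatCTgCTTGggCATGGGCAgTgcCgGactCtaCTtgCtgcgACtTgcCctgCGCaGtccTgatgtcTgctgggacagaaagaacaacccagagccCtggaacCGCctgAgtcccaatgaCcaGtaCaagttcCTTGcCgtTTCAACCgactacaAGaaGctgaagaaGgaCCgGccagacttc
They are 246 and 261 bases long and identical at 160 of 246 aligned bases (65.0%), with a longest identical run of 28 bases. Neither shares any 50-base stretch with another gene's transcripts.

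**Figure D5:**
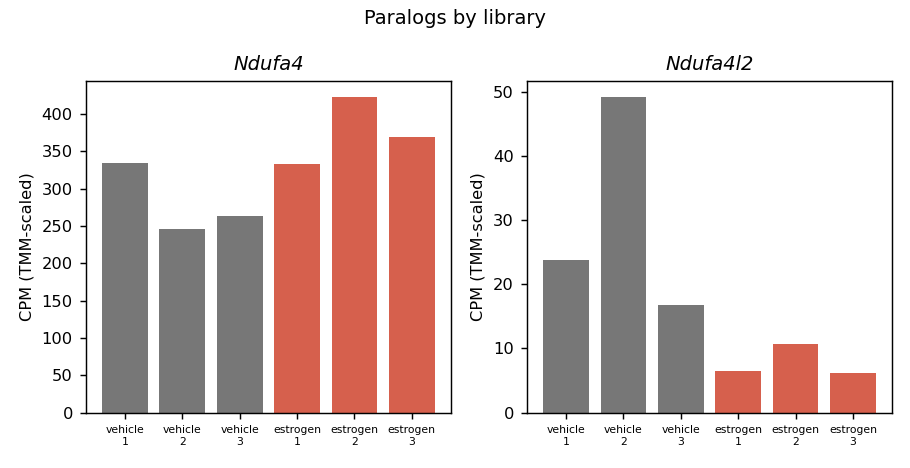
TMM-scaled CPM (y axis, from 0) of Ndufa4 and Ndufa4l2 in each library (x axis, group and replicate). Ndufa4 runs from 246 to 423 CPM with overlapping groups, while Ndufa4l2 is at 16.8 to 49.2 CPM with vehicle and 6.13 to 10.7 CPM with estrogen.

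Among assembly factors of complex I that do not carry the Nduf name, 12 of the 15 listed symbols were tested (Dmac1 and Dmac2 were also listed under older names). Of these 12, 10 were positive, 8 were higher at an unadjusted p under 0.05 (background 9.49%) and 0 passed by edgeR over all genes. DESeq2 called 1 higher (background 2.75%) and 0 lower (background 3.34%). Their median was 0.37. Foxred1, an oxidoreductase-like late assembly factor, was at 75.2, 63.5 and 64.3 CPM with vehicle and 85.2, 109 and 94.4 CPM with estrogen, with groups apart and a log2 fold change of 0.51 ± 0.14 (DESeq2 adjusted p = 0.0455). Ecsit and Tmem126a had 0.39 and 0.35, and Nubpl, which delivers iron-sulfur clusters to the complex, 0.51. Tmem126b, which works in the same membrane-arm intermediate as Ecsit and Ndufaf1, had 0.02 ± 0.09. Dmac1 and Lyrm2 were below 0, at -0.14 and -0.08.

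On the mitochondrial genome, 7 further core subunits are encoded, and their median log2 fold change was 0.74, with 7 of 7 positive. Summed, they were at 33250, 24150 and 23010 CPM in the vehicle libraries, in the order of replicates, and at 36930, 43680 and 52660 CPM in the estrogen libraries. Estrogen replicate 3 was thus their highest library, where the nuclear genes were highest in estrogen replicate 2. By edgeR 0 of the 7 passed over all genes (5 higher at an unadjusted p under 0.05, background 9.49%), and DESeq2 called 5 higher (background 2.75%).

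Of 11 listed regulators of respiratory chain genes, 5 were positive, and the median was -0.02. Ppargc1b, a coactivator of mitochondrial genes, was at 11.6, 11.6 and 13.8 CPM with vehicle and 22.4, 30.2 and 21.7 CPM with estrogen, with groups apart (log2 fold change 1.005 ± 0.17, edgeR adjusted p = 0.207, DESeq2 adjusted p = 0.00173). The related Pprc1 was at 33.1 ± 3.58 CPM with vehicle and 21.9 ± 2.97 CPM with estrogen (means and SD, n = 3 each). Its difference was -0.59 ± 0.14 on the log2 scale (edgeR adjusted p = 0.207, DESeq2 adjusted p = 0.0432). Esrra, the estrogen-related receptor alpha, had 0.48 ± 0.19 and Tfam, the packaging and transcription factor of mitochondrial DNA, 0.30 ± 0.10. Nrf1, Gabpa and Yy1, which encode factors for the motifs searched, had -0.14, -0.21 and -0.02.

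For comparison, genes of complexes II to V had a median log2 fold change of 0.41 with 43 of 44 positive and 15 higher at an unadjusted p under 0.05 (background 9.49%). Mitochondrial ribosomal protein genes had a median of 0.28 with 70 of 77 positive and 23 higher at an unadjusted p under 0.05. The complex I median therefore lay at the pooled median of complexes II to V. Taken separately, their medians were 0.52 for complex II, 0.51 for complex III, 0.36 for complex IV and 0.36 for complex V. Whether complex I differed from any of these sets was not tested. Adipocyte markers, of which 10 of 12 were positive, had a median of 0.62. By library they were highest in estrogen replicate 3, 0.80 above their mean over the libraries on the log2 scale, where complex I members lay at 0.23, and at 0.00 in estrogen replicate 2, where complex I members lay at 0.39. The part of adipocyte content in the complex I result was not tested.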

How the data were processed

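The authors' deposited table holds raw, unnormalized counts of reads per gene in 6 libraries. They were aligned with HISAT2 and counted with featureCounts on mm10, per the submitters' processing notes; the sources used here do not give versions, strand setting or the treatment of multiply mapping reads. Gene lengths are those of the deposited table. Groups and replicate numbers came from the sample titles, and the deposited count columns number some of the libraries differently. The labels do not say that libraries are separate animals, so p-values cover only the spread among these libraries, possibly a technical one; no pair within a group agreed within sampling noise (chi-square per degree of freedom 41.7 to 88.6).

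Counts were filtered with filterByExpr (15591 genes kept, all 46 members among them), scaled by TMM factors and tested with edgeR 4.0.16 (quasi-likelihood, no replicate block, threshold 0.05) in R 4.3.3, with limma 3.58.1 and DESeq2 1.42.0 as alternatives, beside other scalings, no filter, a block for the replicate number and fits with single libraries left out. CPM values are TMM-scaled, and standard errors come from the F statistic. The members and gene lists were chosen with earlier results of these data known, so lists carry no test. Values per library were given for the core subunits (1 is not reported here), the 8 accessory and 4 assembly genes of smallest p, members below 0 or called by DESeq2, and Ndufa4 and Ndufa4l2; for Ndufb2 and Ndufaf2 they were added, and Tmem126b, Dmac1, Lyrm2, Nrf1, Gabpa, Yy1 and further members were named, after their values were seen. Shared sequence was counted as 50-base stretches of the longest coding transcript (GENCODE M21) found in other genes' transcripts, which held for 20 of 46 members and over 30% of stretches for 7. Exons of 19 members overlap another gene, 17 of them on the opposite strand. Promoters are RefSeq's on GRCm38.p6. The edgeR step was tested on simulated data.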

Additional observations from a re-analysis of the deposited data

How the results depend on the processing

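DESeq2 called 386 genes higher and 468 lower over all genes, and 6 complex I members higher and 1 lower, where edgeR called 0 in each case. With a library left out, edgeR called 0 to 13 genes higher and 0 lower, the 13 being those without estrogen replicate 2, and 0 complex I members in either direction. Under the other alternatives (RLE, upper-quartile and library-total scaling, mitochondrial chromosome left out of scaling, no filter, limma-voom, replicate block) 0 genes and 0 members were called. Scaling by library totals moved the median of all genes to -0.17. The medians were then 0.34 for core, 0.24 for accessory and 0.14 for assembly genes, and 4 members, Ndufa4l2, Ndufaf2, Ndufaf8 and Ndufb2, were below 0. With a library left out, the median over the members was 0.32 to 0.51 and 1 to 3 members were below 0. At an unadjusted p under 0.05, 7 members were higher with library totals, 15 with the replicate block and 7 to 30 with a library left out, against 27. The share over all tested genes is given only for the main fit (9.49%), so these counts have no background of their own. The replicate block used the numbers of the titles, which only number the libraries: deviations of same-numbered libraries correlated at -0.12, 0.16 and 0.29, and vehicle replicate 1 correlated best with estrogen replicate 2. With the block, the medians were 0.51, 0.41 and 0.31, and Ndufa4l2 was at -1.85 (edgeR adjusted p = 0.0594, range over its alternatives 0.00243 with DESeq2 to 0.520 without vehicle replicate 2). The lowest edgeR adjusted p of any gene was 0.207, while DESeq2 called members with differences as small as that of Ndufb5 (1.40-fold by edgeR, DESeq2 adjusted p = 0.0479); the cause of this gap between the tools was not tested.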

Other observations

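Rows with an Nduf symbol and another biotype are not members. Ndufb1-ps, listed as a bidirectional promoter lncRNA and described in the table as subunit B1, had 42.7, 40.7 and 39.3 CPM in the vehicle libraries, in the order of replicates, and 44.6, 56.0 and 45.8 CPM in the estrogen libraries, with a log2 fold change of 0.25 (edgeR unadjusted p = 0.0796). The lowest estrogen library was above the highest vehicle library. Ndufab1-ps, a processed pseudogene whose parent's coding sequence occurs almost whole in other transcripts, was at 24.9, 18.5 and 19.9 CPM with vehicle and 24.9, 30.3 and 34.1 CPM with estrogen, a log2 fold change of 0.50 (edgeR unadjusted p = 0.0215). The pseudogene Ndufb4c had 0.14, and Ndufs6b had 7 to 18 counts with vehicle and 8 to 23 with estrogen. Ndufa11b had 0 counts in each library.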
